A study of Drosophila melanogaster with 7 samples.

Results

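RNA of OK107-tagged nuclei from adult Drosophila heads was compared with RNA of the whole dissected adult brain, over all fly genes of the deposited table. The comparison uses 3 of its 6 libraries, which are OK107 a, OK107 b and whole brain. The table holds 15551 fly genes, and 92 spike-in species were dropped. In the OK107 flies the OK107-GAL4 driver switched on unc84-GFP, a tagged protein of the nuclear envelope, primarily in Kenyon cells, per the labels. Tagged nuclei were collected on antibody-coated beads from lysates of frozen heads. The whole brain sample holds all cells of the brain, and no driver or tag is given for it. Its molecule is labelled nuclear RNA, like that of the other samples, although the sample is described as dissected tissue. The labels give every sample as adult and give no sex or genotype beyond the driver. Cell type, head against dissected brain, tagged nuclei against tissue, and the date tag of the column names all change together between the groups and cannot be told apart. In such bulk samples, fewer cells of a type and less RNA per cell cannot be told apart either.

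Kenyon cells are the intrinsic neurons of the mushroom body, the paired brain structure in which flies form olfactory memories. They receive odour input from cholinergic projection neurons in the calyx, send parallel axons into the lobes, and are themselves known to release acetylcholine. Dopamine arriving in the lobes during training acts through receptors coupled to the cAMP pathway, and the genes of this pathway were found through learning mutants. Mushroom body development and identity depend on transcription factors such as Eyeless, Twin of eyeless and Dachshund. OK107-GAL4 is an insertion at ey, so the level of ey in these flies may also reflect the insertion, and its part in the result was not tested. The driver is also known to be active in a few other brain cells, among them neurosecretory cells of the pars intercerebralis.

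Levels are in FPKM, which scales the fragments of a gene to its transcript length and to the depth of the library. Between 9388 and 9460 genes reached 1 FPKM in the OK107 libraries, against 8486 in whole brain. The 10 most abundant genes took 5.72% and 6.08% of the summed FPKM in OK107 a and b, against 11.5% in whole brain. From the spacing of low values, 1 read on a transcript of 1 kb was worth 0.0362 and 0.0424 FPKM in OK107 a and b, against 0.0168 FPKM in whole brain, which was thus read more deeply. These depths are rough, since 61.5% to 65.5% of the low values examined in these libraries lay within 0.2 of a whole read. Spike-in RNA was at 0 in OK107 a and present in OK107 b and whole brain. The neuronal label checks were present throughout. elav had 223 and 219.7 FPKM in the OK107 libraries, against 161 FPKM in whole brain, and n-syb (nSyb), a synaptic vesicle protein gene, had 976 and 934 FPKM in the OK107 libraries, against 1112 FPKM in whole brain. elav passed as higher by 0.46 on the log2 scale (adjusted p = 0.027) and n-syb did not pass (adjusted p = 0.275). elav lost its call in 4 of 15 alternatives, among them leaving out either OK107 library, and n-syb passed as lower in 4.

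More genes passed the test between OK107 nuclei and whole brain than did not. Differences are OK107 minus whole brain on log2(FPKM + 1), which understates the change of genes at low levels. They were tested with limma over all 6 libraries, with Benjamini-Hochberg adjusted p-values and a threshold of 0.05. Of 9605 genes tested, 3028 (31.5%) were higher in OK107, 2113 (22.0%) were lower, and 53.5% passed in all. The higher genes include 1819 (18.9%) that differed at least 2-fold and 43 (0.448%) that differed at least 16-fold. The lower genes include 1090 (11.3%) at 2-fold and 28 (0.292%) at 16-fold. The median difference of all tested genes was 0.10, with quartiles of -0.46 and 0.76. Whole brain has 1 library, whose spread was assumed to be that of the OK107 and Tdc2 pairs, so p-values cover only the spread within those pairs. Within the pairs the SD of log2 ratios over tested genes was 0.18 for OK107 and 0.39 for Tdc2. Both OK107 columns carry the same date tag, and the Tdc2 columns carry different ones. The OK107 pair thus holds no spread between date tags, although OK107 and whole brain differ in tag. When only OK107 a or only OK107 b was compared with whole brain, fewer genes passed. The median difference of all genes was then 0.09 and 0.12. In those fits the spread came from the Tdc2 pair alone. A call lost there does not by itself show that the OK107 libraries disagree.

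**Figure D1:**
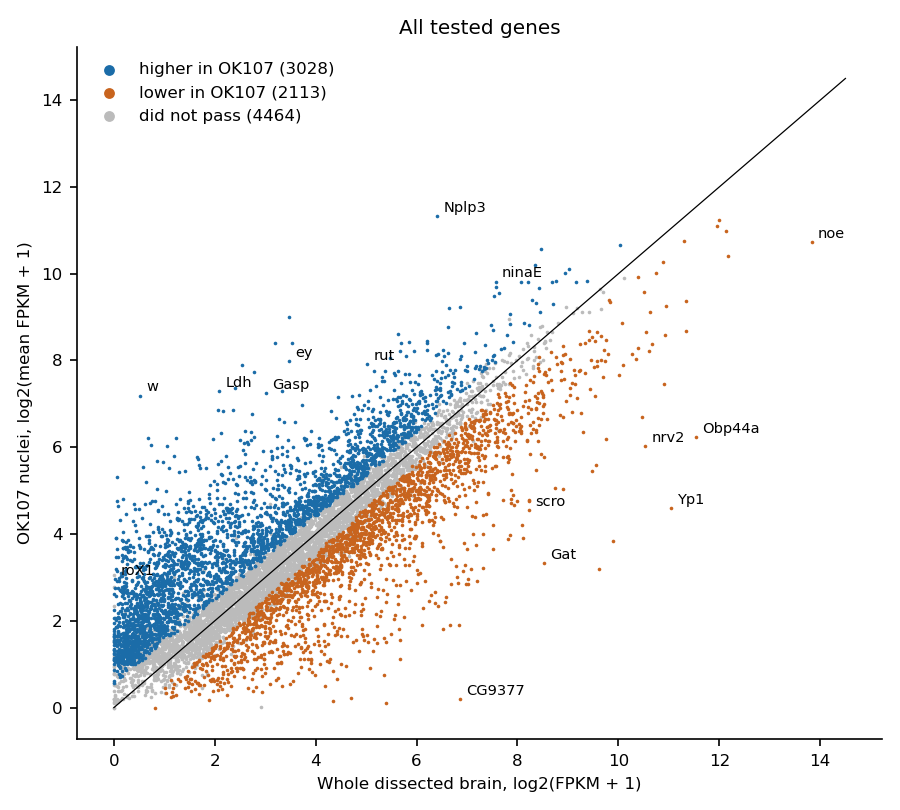
Each point is a tested gene, with its mean level in the 2 OK107 libraries on the vertical axis and its level in whole brain on the horizontal axis, both as log2(FPKM + 1). The 3028 genes that passed as higher in OK107 are blue, the 2113 lower genes are orange and the 4464 that did not pass are grey. Nplp3, w and ey lie far above the line of equal levels, and Yp1, Obp44a, Gat (CG1732) and CG9377 lie far below it.

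Genes listed as Kenyon cell markers were mostly higher in OK107 nuclei. The list was drawn up with earlier results of these data known, so its counts are a description and no separate support. It includes ImpL3, which had the largest difference of the list, 5.20. Of 24 markers tested, 21 were higher, 1 was lower and 2 did not pass, against 31.5% and 22.0% of all genes. Their median difference was 1.55, against 0.10 for all genes. The marker median was 0.795 in R57C10 nuclei, from all mature neurons, against the same whole brain library, and 17 markers lay above whole brain. All genes had a median of -0.218 there. An upward shift of the markers was thus not particular to OK107, though it was larger in OK107. ey, the Pax6-family transcription factor gene, had 248 and 259 FPKM in the OK107 libraries, against 10.2 FPKM in whole brain. Both OK107 libraries stood far above whole brain, 25.0-fold on the ratio of means, with a difference of 4.51 (SE 0.15, adjusted p = 0.00032). toy, another Pax6-family gene, which acts upstream of ey, had 296 and 306 FPKM in the OK107 libraries, against 90.8 FPKM in whole brain. dac, which encodes a nuclear factor of mushroom body neurons, had 46.7 and 46.4 FPKM in the OK107 libraries, against 7.51 FPKM in whole brain. All 3 genes belong to the retinal determination network, which builds the eye and is reused in the mushroom body. Of 11 tested genes of that network, 6 were higher and 2 were lower, namely Optix and tio, neither of which passed with only OK107 a or only OK107 b. CG10251 (prt, portabella), a vesicular transporter gene expressed in Kenyon cells, had 54.5 and 59.4 FPKM in the OK107 libraries, against 5.09 FPKM in whole brain. ImpL3 (Ldh), the lactate dehydrogenase gene, had 158 and 152 FPKM in the OK107 libraries, against 3.26 FPKM in whole brain, a 47.6-fold ratio of means. Mef2, a transcription factor gene of Kenyon cells, had 179.6 and 183 FPKM in the OK107 libraries, against 61.4 FPKM in whole brain. Both OK107 libraries lay above whole brain for each of these genes, but both lay on one side of it for 95.2% of all tested genes, so this says little. The marker that was lower was 14-3-3zeta (leonardo), a gene needed for olfactory learning that many cells express, with 2345 and 2506 FPKM in the OK107 libraries, against 4069 FPKM in whole brain. The 14-3-3zeta call was lost after quantile normalization and with no filter on low values. Pka-R1 and trio, a regulatory subunit gene of protein kinase A and a gene needed in mushroom body axons, did not pass. With only OK107 a or only OK107 b, 18 markers were higher and 14-3-3zeta did not pass.

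**Figure D2:**
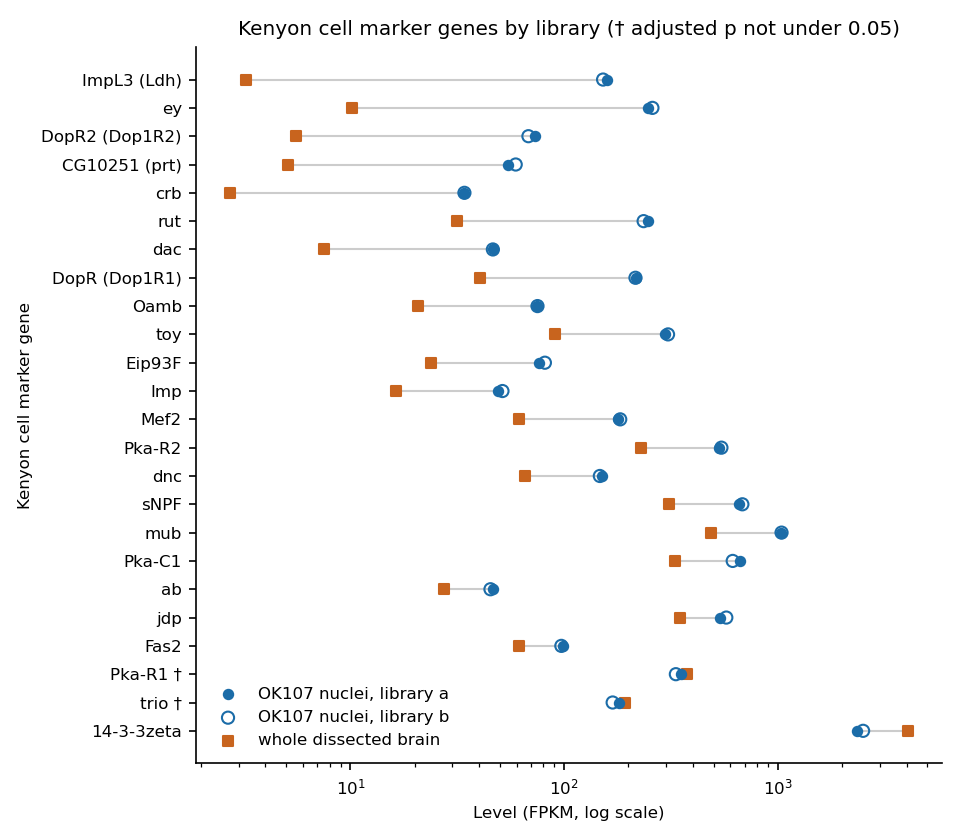
Level in FPKM on a log scale of each of 24 Kenyon cell marker genes in OK107 library a (filled circle), OK107 library b (open circle) and whole brain (square), ordered by difference. The OK107 libraries lie close together and above whole brain for 21 of the genes, and 14-3-3zeta lies below it.

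The cAMP pathway genes that act in memory formation followed the markers in part. Of 23 tested, 13 (56.5%) were higher and 4 (17.4%) were lower, against 31.5% and 22.0% of all genes. Their median was 0.45, and in R57C10 nuclei, from all mature neurons, it was 0.35 against the same whole brain library. rut, the calcium-responsive adenylyl cyclase gene, had 247 and 236 FPKM in the OK107 libraries, against 31.4 FPKM in whole brain. Its difference of 2.90 (SE 0.12, adjusted p = 0.000358) was above that of the other cyclases that passed as higher, of which Ac13E had 16.2 and 15.5 FPKM in the OK107 libraries, against 7.23 FPKM in whole brain. Another cyclase gene, Ac76E, was lower, with 13.2 and 14.6 FPKM in the OK107 libraries, against 25.2 FPKM in whole brain. Phosphodiesterase genes, whose enzymes break cAMP down, were also higher. dnc had 149.9 and 147 FPKM in the OK107 libraries, against 65.9 FPKM in whole brain, and Pde8 had 97.2 and 89.4 FPKM in the OK107 libraries, against 33.4 FPKM in whole brain. The catalytic subunit gene of protein kinase A, Pka-C1, had 662 and 615 FPKM in the OK107 libraries, against 331 FPKM in whole brain. Its regulatory partner Pka-R2 had 528 and 545 FPKM in the OK107 libraries, against 229 FPKM in whole brain. Epac, a cAMP-binding exchange factor gene that works apart from the kinase, was lower, with 58.5 and 54.2 FPKM in the OK107 libraries, against 109.8 FPKM in whole brain. Akap200, an anchoring protein gene of the kinase, and G-oalpha47A (Galphao), a G protein subunit gene, were also lower, with differences of -1.06 and -0.93.

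Cell-surface and learning genes of the mushroom body were higher in 18 of 32 cases and lower in 5. Their median was 0.463, and in R57C10 nuclei, against the same whole brain library, it was 0.565. When OK107 a or OK107 b stood alone, 10 and 9 were higher and 1 was lower in each case. Dscam, the immunoglobulin-family gene with very many splice forms that keeps sister axon branches apart, had 61.7 and 63.8 FPKM in the OK107 libraries, against 8.45 FPKM in whole brain. rad (radish), needed for a form of consolidated memory, had 62.7 and 64.7 FPKM in the OK107 libraries, against 9.05 FPKM in whole brain. Fas2, the cell adhesion gene that marks the alpha and beta lobes, had 99.2 and 97.1 FPKM in the OK107 libraries, against 61.7 FPKM in whole brain, a smaller difference of 0.66 (adjusted p = 0.00916). The 5 lower genes were Syn, Fmr1, sra, stau and Tequila. Dpr proteins and their DIP binding partners are surface proteins expressed in neuron-specific combinations. Of 30 such genes 12 were higher and 6 lower, near the 31.5% and 22.0% of all genes. dpr5, among the higher ones, had 29.4 and 29.6 FPKM in the OK107 libraries, against 7.53 FPKM in whole brain. Taking OK107 a or OK107 b alone, the counts were 7 and 7 higher and 2 and 1 lower.

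Receptor genes for the transmitters that reach the mushroom body were higher as a rule. The medians of dopamine, serotonin, and octopamine and tyramine receptor genes were 2.28, 1.10 and 0.785. In R57C10 nuclei, against the same whole brain library, they were 1.382, 0.947 and 0.929, so an upward shift was not particular to OK107. All 4 dopamine receptor genes passed as higher. DopR2 (Dop1R2), tied to memory retention and forgetting, had 73.0 and 68.1 FPKM in the OK107 libraries, against 5.58 FPKM in whole brain, a 12.6-fold ratio. DopR (Dop1R1), needed in Kenyon cells for aversive and appetitive learning, had 216 and 216 FPKM in the OK107 libraries, against 40.6 FPKM in whole brain. D2R (Dop2R), the inhibitory receptor gene, had 187 and 180.5 FPKM in the OK107 libraries, against 39.8 FPKM in whole brain. DopEcR, the remaining gene, which also binds ecdysone, had 460.1 and 466 FPKM in the OK107 libraries, against 280.4 FPKM in whole brain and so differed least, by 0.72 (adjusted p = 0.00998). With only 1 OK107 library, whichever it was, 3 of the 4 passed. Of 5 serotonin receptor genes, 5-HT1B, 5-HT1A and 5-HT2 (5-HT2A) were higher, and 5-HT1B had 60.7 and 61.1 FPKM in the OK107 libraries, against 18.7 FPKM in whole brain. 5-HT7 and CG42796 (5-HT2B) did not pass. Oamb, the octopamine receptor gene named for its mushroom body expression, had 74.4 and 75.1 FPKM in the OK107 libraries, against 20.8 FPKM in whole brain. Of 8 octopamine and tyramine receptor genes, 5 were higher, namely Oamb, oa2 (Octbeta1R), Octbeta3R, TyrR (Oct-TyrR) and CG18208 (Octalpha2R), while Octbeta2R and TyrRII were lower and CG7431 did not pass. With only OK107 a or only OK107 b neither of the lower genes passed. Octbeta2R had 36.6 and 37.7 FPKM in the OK107 libraries, against 51.2 FPKM in whole brain.

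Subunits of ionotropic receptors shifted upward as well. The medians of nicotinic, GABA and glutamate receptor genes were 0.885, 0.45 and 1.019. In R57C10 nuclei, against the same whole brain library, they were 1.153, 0.898 and 0.767, so this shift was not particular to OK107 either. Of 9 nicotinic acetylcholine receptor subunit genes, 8 were higher, with 4 higher when either OK107 library stood alone. The beta subunit gene nAcRbeta-64B (nAChRbeta1) had 872 and 918 FPKM in the OK107 libraries, against 266 FPKM in whole brain. nAcRalpha-30D (nAChRalpha6), the target of the insecticide spinosad, had 197 and 218 FPKM in the OK107 libraries, against 46.1 FPKM in whole brain. The subunit gene that did not pass, nAcRbeta-21C (nAChRbeta3), was near 1 FPKM or below it in all 3 libraries. Muscarinic receptor gene mAcR-60C (mAChR-A) had 109.5 and 103.6 FPKM in the OK107 libraries, against 42.0 FPKM in whole brain, and CG7918 (mAChR-B) also passed as higher, while CG12796 (mAChR-C) did not pass. Rdl, the GABA-gated chloride channel gene through which Kenyon cells are inhibited, had 702 and 730.2 FPKM in the OK107 libraries, against 185 FPKM in whole brain. Of 8 GABA receptor genes 4 were higher and 2 lower, namely Grd and CG12344 (alka), while GABA-B-R1, GABA-B-R2, GABA-B-R3 and Rdl were the higher ones and Lcch3 and CG8916 did not pass, with 2 and 1 higher and 1 lower with only OK107 a or only OK107 b. CG12344 had 1.95 and 1.81 FPKM in the OK107 libraries, against 16.9 FPKM in whole brain. Of 9 glutamate receptor genes 6 were higher and none was lower, and the glutamate-gated chloride channel gene GluClalpha had 451 and 449 FPKM in the OK107 libraries, against 177 FPKM in whole brain. The 5 glutamate receptor genes left untested, among them GluRIIA and GluRIIB of the neuromuscular junction, lay under 2 FPKM.

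Genes of ion channels were higher in most cases. Of 20 potassium channel genes tested, 17 were higher, and of 21 sodium and calcium channel genes 16 were higher and none was lower. Their medians were 1.10 and 0.87. para, the voltage-gated sodium channel gene that carries the action potential, had 393 and 391 FPKM in the OK107 libraries, against 48.7 FPKM in whole brain. It stood 8.05-fold above whole brain (difference 2.98, SE 0.17, adjusted p = 0.000504). Among potassium channels, Shab had 341 and 331 FPKM in the OK107 libraries, against 50.7 FPKM in whole brain. slo, the calcium-activated channel gene, had 333 and 341 FPKM in the OK107 libraries, against 72.8 FPKM in whole brain. cac, the presynaptic calcium channel gene, had 294 and 299 FPKM in the OK107 libraries, against 61.2 FPKM in whole brain, and its alpha2delta partner stj had 218 and 211 FPKM in the OK107 libraries, against 34.5 FPKM in whole brain. The 3 potassium channel genes that were lower are an inward rectifier pair and a leak channel rather than voltage-gated ones. Irk2 had 12.6 and 12.3 FPKM in the OK107 libraries, against 144 FPKM in whole brain. Irk3 had 1.74 and 1.99 FPKM in the OK107 libraries, against 41.0 FPKM in whole brain. Ork1, the leak channel gene, had 1.27 and 1.07 FPKM in the OK107 libraries, against 6.85 FPKM in whole brain. R57C10 nuclei, from all mature neurons, had 547 FPKM of para and 4.71 FPKM of Irk2. R57C10 against whole brain shares the whole brain library, so it is no separate support. The median of the potassium channel genes there was 1.299. That of the sodium and calcium channel genes was 1.347, so an upward shift was not particular to OK107.

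Genes that all neurons use, and those of vesicle release, went both ways. Of 24 pan-neuronal genes 8 (33.3%) were higher and 11 (45.8%) were lower, against 31.5% and 22.0% of all genes. The higher share was near that of all genes, and the median was -0.30. After quantile normalization the counts were 12 and 4 and the median was 0.19, so the direction of this list depends on the scaling. When OK107 a or OK107 b stood alone, 7 were lower in each case. Of 32 active zone and vesicle genes, a list that shares members with the pan-neuronal one, 9 (28.1%) were higher and 13 (40.6%) lower. Here too the higher share was near that of all genes, and the median was -0.36. After quantile normalization 11 were higher and 8 lower, with a median of -0.03. Among the higher genes, Rim, an active zone scaffold gene, had 206 and 202 FPKM in the OK107 libraries, against 56.4 FPKM in whole brain. unc-13, the vesicle priming gene, had 835 and 802 FPKM in the OK107 libraries, against 344 FPKM in whole brain. Among the lower genes, Snap25, a gene of the SNARE complex that fuses vesicles, had 133 and 146 FPKM in the OK107 libraries, against 578 FPKM in whole brain. comt, the gene of the NSF that takes SNARE complexes apart, had 71.3 and 68.8 FPKM in the OK107 libraries, against 246 FPKM in whole brain. cpx, the complexin gene, had 1991 and 2056 FPKM in the OK107 libraries, against 4481 FPKM in whole brain.

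Genes of acetylcholine, GABA and glutamate neurons were lower or did not pass. Cha (ChAT), which makes acetylcholine, had 41.5 and 40.9 FPKM in the OK107 libraries, against 119.8 FPKM in whole brain, a difference of -1.52 (SE 0.17, adjusted p = 0.00193). VAChT, which loads acetylcholine into vesicles from the same locus, had 269 and 248 FPKM in the OK107 libraries, against 363 FPKM in whole brain and did not pass (adjusted p = 0.0814). Since the 2 genes share their first exon, the split of reads between them is uncertain. Ace, the acetylcholinesterase gene, was lower, with 159 and 150.1 FPKM in the OK107 libraries, against 282 FPKM in whole brain, and CG7708 (ChT), the choline transporter gene, did not pass. Gad1, the GABA synthesis gene, had 238 and 219 FPKM in the OK107 libraries, against 731 FPKM in whole brain. VGlut, the vesicular glutamate transporter gene, had 195 and 183 FPKM in the OK107 libraries, against 486 FPKM in whole brain. Whole brain was above both OK107 libraries for Cha, Gad1 and VGlut. CG1732 (Gat), a GABA transporter gene of astrocyte-like glia, had 8.87 and 9.27 FPKM in the OK107 libraries, against 369 FPKM in whole brain, 40.7-fold lower. CG7433 (Gabat), the GABA transaminase gene, was lower, with 50.5 and 57.8 FPKM in the OK107 libraries, against 369.8 FPKM in whole brain. VGAT, the vesicular GABA transporter gene, did not pass. Of 10 genes of dopamine, serotonin and histamine neurons, DAT, SerT, Pu and t were higher, e was lower and the others did not pass. Taking OK107 a or OK107 b alone, 1 was higher in place of 4, and 1 with no filter on low values. ple, the tyrosine hydroxylase gene that starts dopamine synthesis, had 31.5 and 31.8 FPKM in the OK107 libraries, against 50.8 FPKM in whole brain (adjusted p = 0.201). DAT, the dopamine transporter gene, had 48.4 and 49.4 FPKM in the OK107 libraries, against 23.8 FPKM in whole brain. e (ebony), whose enzyme conjugates biogenic amines in glia and cuticle, had 5.23 and 5.44 FPKM in the OK107 libraries, against 81.3 FPKM in whole brain. Tbh, which makes octopamine, had 16.6 and 16.9 FPKM in the OK107 libraries, against 38.3 FPKM in whole brain. Tdc1, the tyrosine decarboxylase gene used outside neurons, was higher, with 4.26 and 4.32 FPKM in the OK107 libraries, against 0.828 FPKM in whole brain. Tdc2, the tyrosine decarboxylase gene of octopaminergic neurons, had 2.77 and 2.92 FPKM in the OK107 libraries, against 2.68 FPKM in whole brain and did not pass, and its sign flips after median centring, after quantile normalization and when the date tag was added to the model.

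Neuropeptide genes split between a few that were higher in OK107 nuclei and many that were lower. Of 36 tested, 6 (16.7%) were higher and 21 (58.3%) lower, against 31.5% and 22.0% of all genes. Their median was -0.88. It was -1.342 in R57C10 nuclei, against the same whole brain library, so a downward shift was not particular to OK107. sNPF, the peptide that Kenyon cells are known to make, had 656 and 682 FPKM in the OK107 libraries, against 309.8 FPKM in whole brain. amn (amnesiac), a memory gene, had 29.2 and 29.1 FPKM in the OK107 libraries, against 4.50 FPKM in whole brain. The other 4 were Dms (Ms, myosuppressin), Dh (Dh44, diuretic hormone), Ilp2 and Nplp3. Dms, Dh and Ilp2 are known products of neurosecretory cells in the pars intercerebralis. Dms had 1418 and 1618 FPKM in the OK107 libraries, against 351 FPKM in whole brain. Dh had 839.6 and 811 FPKM in the OK107 libraries, against 189 FPKM in whole brain. Ilp2, an insulin-like peptide gene, had 396 and 434 FPKM in the OK107 libraries, against 182 FPKM in whole brain. In R57C10 nuclei these 3 were at 135, 82.8 and 26.0 FPKM, below both whole brain and OK107. Of 7 insulin-like peptide genes tested 3 (42.9%) were higher and 1 (14.3%) lower. Ilp1 had 23.2 and 26.6 FPKM in the OK107 libraries, against 3.42 FPKM in whole brain, and Ilp4 had 3.93 and 4.00 FPKM in the OK107 libraries, against 0.35 FPKM in whole brain. Ilp6, a fat body and glial member, was lower, with 7.10 and 6.28 FPKM in the OK107 libraries, against 45.3 FPKM in whole brain. Ilp7 did not pass. Ilp3 and Ilp5, made by the same insulin-producing cells as Ilp2, did not pass, and Ilp5 had 163 and 173 FPKM in the OK107 libraries, against 200.3 FPKM in whole brain. Among the lower peptides, Mip had 2.05 and 2.26 FPKM in the OK107 libraries, against 23.5 FPKM in whole brain. Ast (AstA, allatostatin A) had 14 and 12.9 FPKM in the OK107 libraries, against 86.8 FPKM in whole brain. Dsk, the cholecystokinin-like peptide gene, had 29.9 and 28.2 FPKM in the OK107 libraries, against 124 FPKM in whole brain. Of 33 neuropeptide receptor genes 15 (45.5%) were higher and 3 (9.09%) lower, with a median of 0.57. Fewer passed as higher with only OK107 a or only OK107 b, where the median was 0.512 and 0.56. Lgr3, a relaxin-like receptor gene, had 10.1 and 10.5 FPKM in the OK107 libraries, against 1.16 FPKM in whole brain, and Proc-R, the proctolin receptor gene, had 2.45 and 2.62 FPKM in the OK107 libraries, against 29.4 FPKM in whole brain.

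Transcription factor genes tied to mushroom body neurons were mostly higher, and those tied to other neuron types were more often lower than higher. Of 20 genes tied to mushroom body neurons, 13 were higher and 3 lower, with a median of 0.67. Of 53 genes tied to other neuron types or glia, 10 were higher and 27 lower, with a median of -0.49. In R57C10 nuclei, against the same whole brain library, the medians of these lists were 0.79 and 0.09. With only OK107 a or only OK107 b the lower count for genes of other neuron types was 15 and 13, and its higher count was 6 in each case. scro, a homeobox gene of the optic lobe, had 22.3 and 22.6 FPKM in the OK107 libraries, against 299 FPKM in whole brain, and is 13.3-fold lower. acj6, a POU-domain gene of olfactory neurons, had 2.88 and 2.74 FPKM in the OK107 libraries, against 12.3 FPKM in whole brain. ap, a LIM-homeobox gene of many interneurons, had 18.2 and 19.9 FPKM in the OK107 libraries, against 44.6 FPKM in whole brain. scro was at 145 FPKM in R57C10 nuclei. Among the mushroom body genes that were lower, erm, a zinc finger gene, had 2.55 and 2.24 FPKM in the OK107 libraries, against 8.83 FPKM in whole brain. Of the Hox genes, which pattern the body axis, 4 of 8 were tested. Scr was lower in the main fit but not with only OK107 a or only OK107 b, and pb, Dfd and Antp did not pass. Genes of temporal regulators and RNA-binding proteins were higher in 13 of 17 cases. Imp and chinmo are known to help set which Kenyon cell type a neuron born at a given time becomes. Imp, an RNA-binding protein gene, had 48.9 and 51.5 FPKM in the OK107 libraries, against 16.3 FPKM in whole brain. chinmo, a BTB zinc finger gene, had 68.9 and 73.0 FPKM in the OK107 libraries, against 35.3 FPKM in whole brain. mamo, an identity gene of the alpha'/beta' Kenyon cells, had 69.6 and 73.7 FPKM in the OK107 libraries, against 19.9 FPKM in whole brain. Eip93F, an ecdysone-induced regulator of late identity, had 76.4 and 81.3 FPKM in the OK107 libraries, against 23.8 FPKM in whole brain. Among ecdysone and nuclear receptor genes 12 of 20 were higher, or 5 with either OK107 library alone. Hr51 (unfulfilled), needed for mushroom body axon growth, had 23.4 and 24.2 FPKM in the OK107 libraries, against 2.35 FPKM in whole brain.

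**Figure D3:**
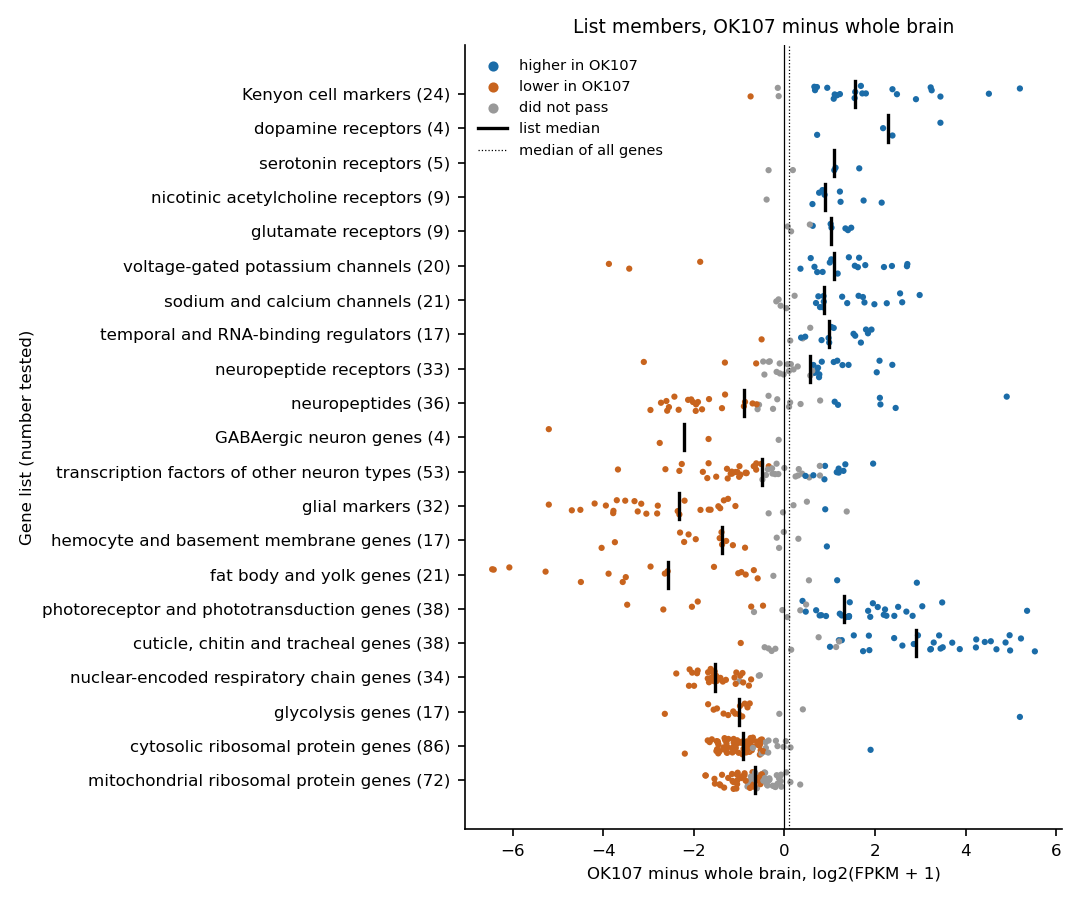
Difference between OK107 and whole brain on log2(FPKM + 1) for every tested member of 21 gene lists. Points are genes, coloured by whether they passed as higher or lower, and black bars are list medians. The medians of Kenyon cell markers, receptors, channels, photoreceptor genes and cuticle genes lie right of 0, and those of glial, fat body, respiratory chain and ribosomal protein genes lie left of it.

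Glial genes were lower in OK107 nuclei. Of 32 tested, 26 (81.2%) were lower, 1 (3.12%) was higher and 5 did not pass, against 22.0% lower and 31.5% higher of all genes. Their median was -2.34, and in R57C10 nuclei, against the same whole brain library, it was -3.243. repo, the transcription factor gene that defines nearly all lateral glia, had 3.54 and 3.38 FPKM in the OK107 libraries, against 21.3 FPKM in whole brain. nrv2, a sodium pump subunit gene used to mark glia, had 63.3 and 64.7 FPKM in the OK107 libraries, against 1474 FPKM in whole brain, 23.02-fold lower (difference -4.50, SE 0.22, adjusted p = 0.000415). Gs2, the glutamine synthetase gene that recycles transmitter, had 99.4 and 106 FPKM in the OK107 libraries, against 1419.7 FPKM in whole brain. CG11910 (alrm), a marker of astrocyte-like glia, had 13.9 and 14.3 FPKM in the OK107 libraries, against 275 FPKM in whole brain. Both OK107 libraries lay below whole brain for each of these. The summed level of the listed glial genes was 1025 and 1055 FPKM in the OK107 libraries, against 6512 FPKM in whole brain. No OK107 library was thus free of them. This sum was 845 FPKM in R57C10 nuclei and 1147 and 1389 FPKM in Tdc2 a and b. A level below whole brain was thus not particular to OK107. The gene that was higher, drpr, encodes an engulfment receptor, and no glial gene was higher with only OK107 a. Gap junction genes of glia moved with the list. inx2 (Inx2) had 25.4 and 26.6 FPKM in the OK107 libraries, against 254 FPKM in whole brain, and ogre, its partner, had 25.1 and 25.1 FPKM in the OK107 libraries, against 232 FPKM in whole brain. shakB, the innexin gene of electrical synapses between neurons, was higher, with 91.2 and 96.1 FPKM in the OK107 libraries, against 45.9 FPKM in whole brain. inx3 (Inx3) and inx7 (Inx7) did not pass, and 3 of the 8 innexin genes were not tested.

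Fat body, yolk and hemocyte genes were also lower. Head fat body surrounds the brain inside the head capsule. Of 21 such genes tested 17 were lower and 2, to and Ag5r, were higher, with a median of -2.58. The yolk protein gene Yp1, expressed in female fat body, had 22.6 and 23.7 FPKM in the OK107 libraries, against 2113 FPKM in whole brain. Yp2 had 7.80 and 8.50 FPKM in the OK107 libraries, against 779.8 FPKM in whole brain. Yp3 had 13.1 and 13.3 FPKM in the OK107 libraries, against 955 FPKM in whole brain. Whole brain was 91.1-fold above OK107 for Yp1, 95.7-fold for Yp2 and 72.3-fold for Yp3. apolpp, listed as Rfabg, which encodes the main lipoprotein of the hemolymph, had 83.0 and 78.5 FPKM in the OK107 libraries, against 633 FPKM in whole brain. The summed level of the listed fat body and yolk genes was 719 and 762 FPKM in the OK107 libraries, against 6824 FPKM in whole brain. In R57C10 nuclei this sum was 1056 FPKM, and in Tdc2 a and b, nuclei also taken from heads, it was 7658 and 6918 FPKM, at or above the whole brain level. Of 17 hemocyte and basement membrane genes 12 were lower and 1 was higher. The collagen IV gene Cg25C (Col4a1) had 5.02 and 4.62 FPKM in the OK107 libraries, against 94.4 FPKM in whole brain, and its partner vkg had 2.14 and 1.98 FPKM in the OK107 libraries, against 39.9 FPKM in whole brain. Odorant-binding and antennal protein genes are a separate list, of which 15 of 35 were tested, 8 higher and 3 lower, with a median of 1.69. The other 20 were under the filter of 1 FPKM in 2 libraries, which OK107 can meet alone and whole brain cannot. All 20 lay under 1 FPKM in whole brain, and the median describes only the members that met the filter. Among the lower members of this list Obp44a had 71.3 and 76.4 FPKM in the OK107 libraries, against 2985 FPKM in whole brain. Its 40.4-fold difference was far outside the gap between the OK107 libraries.

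Genes of the retina and cuticle were mostly higher in OK107 nuclei. Of 38 photoreceptor and phototransduction genes 27 were higher and 6 lower, with a median of 1.31. ninaE, the main opsin gene of the outer photoreceptors, had 911 and 895 FPKM in the OK107 libraries, against 189 FPKM in whole brain. It was also above whole brain in R57C10 nuclei, at 469 FPKM, and in both Tdc2 libraries, at 4829.5 and 4054 FPKM. Rh2, the opsin gene of the ocelli, the simple eyes on top of the head, had 25.5 and 26.6 FPKM in the OK107 libraries, against 299 FPKM in whole brain and was 11.5-fold lower. norpA, the phospholipase C gene of phototransduction, and ort, the histamine receptor gene of their target neurons, were among the lower genes. retinin, a gene of the corneal lens, had 214 and 263 FPKM in the OK107 libraries, against 4.82 FPKM in whole brain. The summed level of the 38 genes was 3811 and 3956 FPKM in the OK107 libraries, against 3115 FPKM in whole brain. Whether this signal moved any other result was not tested.

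Cuticle, chitin and tracheal genes were higher in 29 of 38 cases and lower in 1, Cpr51A, with a median of 2.90. When OK107 a or OK107 b stood alone, 16 and 17 were higher. Their summed level was 1788 and 2012 FPKM in the OK107 libraries, against 119.8 FPKM in whole brain. In R57C10 nuclei the same sum was 131 FPKM, close to that of whole brain, and in Tdc2 a and b it was 209 and 758 FPKM. Gasp, a chitin-binding protein gene of the tracheal lining, had 141 and 160.2 FPKM in the OK107 libraries, against 7.08 FPKM in whole brain. serp and verm, both chitin deacetylase genes of the tracheae, were higher by 4.98 and 4.97. Each lost its call in 2 of 15 alternatives. Cpr72Ec, a cuticle protein gene, had 43.4 and 45.9 FPKM in the OK107 libraries, against 1.13 FPKM in whole brain, and its difference of 4.42 had an SE of 0.15. The SE was far larger for Cpr100A (1.66, difference 5.22, adjusted p = 0.0472), a gene that also varied widely between the Tdc2 libraries, at 8.11 and 181 FPKM. The Cpr100A call was lost in 5 of 15 alternatives. No cuticle-making cell is known to be part of the mushroom body, and the part of such cells in the other results was not tested.

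Chemoreceptor genes, which peripheral sensory neurons use, were mostly too low to test, with 35 of 182 tested. Of those tested 27 were higher, or 17 after quantile normalization. The filter asks for 1 FPKM in 2 libraries, which OK107 can meet alone and whole brain cannot, so genes high only in whole brain were left out. With a filter that 1 of the 3 libraries compared can meet, 30 of 38 were higher and 0 lower. Or45a had 53.8 and 53.9 FPKM in the OK107 libraries, against 2.147 FPKM in whole brain. Gr47a had 42.5 and 39.8 FPKM in the OK107 libraries, against 3.94 FPKM in whole brain. Both genes were also high in R57C10 nuclei, at 56.7 and 60.5 FPKM. Orco, the co-receptor gene that most odorant receptors need, lay under 1 FPKM in all 6 libraries and was not tested. Muscle genes were higher in 5 (21.7%) and lower in 4 (17.4%) of 23 cases, against 31.5% and 22.0% of all genes. With only the 3 libraries compared in the fit 12 were higher and 8 lower, and 15 were higher when the date tag was added to the model. Msp-300 (Msp300), a giant nesprin of the nuclear envelope that is also expressed outside muscle, had 301 and 305 FPKM in the OK107 libraries, against 73.3 FPKM in whole brain, and Act79B, a muscle actin gene, had 1.03 and 0.713 FPKM in the OK107 libraries, against 8.08 FPKM in whole brain.

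Genes of energy metabolism and protein synthesis were lower as groups. None of the 34 respiratory chain genes encoded in the nucleus was higher and 31 were lower, with a median of -1.52. sesB, the mitochondrial ADP/ATP carrier gene, had 285 and 309 FPKM in the OK107 libraries, against 1558 FPKM in whole brain. ATPsyn-beta (ATPsynbeta), a catalytic subunit gene of ATP synthase, had 313 and 311 FPKM in the OK107 libraries, against 1347 FPKM in whole brain. Glycolysis genes were lower in 14 of 17 cases, with a median of -1.01. PyK, the pyruvate kinase gene at the end of the pathway, had 81.4 and 83.4 FPKM in the OK107 libraries, against 267 FPKM in whole brain. ImpL3, whose product turns pyruvate into lactate, was the glycolysis gene that was higher, as given above. In R57C10 nuclei ImpL3 was at 91.4 FPKM, and in Tdc2 a and b at 1.62 and 1.54 FPKM. Proton pump genes that acidify vesicles and lysosomes were lower in 12 of 18 cases. Vha68-2 had 20.4 and 21.9 FPKM in the OK107 libraries, against 108 FPKM in whole brain. Vha100-1, the subunit gene used by neurons at synapses, was the proton pump gene that was higher.

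Of 86 cytosolic ribosomal protein genes 72 were lower and 1 was higher, with a median of -0.92. Taking OK107 a or OK107 b alone, 56 and 43 were lower. RpL7 had 121 and 122 FPKM in the OK107 libraries, against 296 FPKM in whole brain, and RpS7 had 243 and 267 FPKM in the OK107 libraries, against 701 FPKM in whole brain. The gene that was higher, RpS10a, is the weakly expressed copy of a duplicated pair and had 6.19 and 5.50 FPKM in the OK107 libraries, against 0.831 FPKM in whole brain. Mitochondrial ribosomal protein genes were lower in 36 of 72 cases and higher in none, or lower in 19 and 13 with only OK107 a or only OK107 b. Translation factor genes were lower in 11 of 14 cases, or in 8 and 7 with only OK107 a or only OK107 b. The elongation factor gene Ef1alpha48D (eEF1alpha1) had 289 and 278 FPKM in the OK107 libraries, against 892 FPKM in whole brain. In R57C10 nuclei, set against the same whole brain library, the median of the cytosolic ribosomal protein genes was -1.44. That of the respiratory chain genes was -1.90, where all genes had a median of -0.22. Tdc2 nuclei differed by list. Summed cytosolic ribosomal protein genes stood at 14696 and 16009 FPKM in Tdc2 a and b, against 15538 FPKM in whole brain. The same sums were 6793 and 7570.5 FPKM in OK107 a and b. Translation factor genes summed to 4835 and 4992 FPKM in Tdc2 a and b, against 4128 FPKM in whole brain. Respiratory chain genes summed to 4780 and 4239 FPKM in Tdc2 a and b, against 10253 FPKM in whole brain. Genes of splicing and nuclear speckles were higher in 8 and lower in 5 of 29 cases, with 1 lower with either OK107 library alone. The shares of the splicing list, 27.6% higher and 17.2% lower, were near the 31.5% and 22.0% of all genes. B52, an SR protein gene of pre-mRNA splicing, had 258 and 292 FPKM in the OK107 libraries, against 54.5 FPKM in whole brain. The median of this list changes sign after median centring. Histone genes were lower in 22 of 26 cases, most of them copies of the histone repeat with nearly the same values, and in 2 with only OK107 b. His3.3B, a replacement histone gene outside the repeat, had 521 and 594 FPKM in the OK107 libraries, against 1573 FPKM in whole brain. Of 13 nuclear envelope genes 5 (38.5%) were higher and 1 (7.69%) was lower. koi, the SUN-domain gene, had 9.12 and 9.23 FPKM in the OK107 libraries, against 2.35 FPKM in whole brain.

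Circadian clock genes were higher in 4 and lower in 8 of 20 cases, or higher in 2 and lower in 3 with either OK107 library alone. The shares in the main fit were 20.0% higher and 40.0% lower, against 31.5% and 22.0% of all genes. cwo, a transcriptional repressor gene of the clock, had 38.9 and 40.4 FPKM in the OK107 libraries, against 11.7 FPKM in whole brain. cry, the blue light receptor gene of clock neurons, had 3.45 and 2.73 FPKM in the OK107 libraries, against 13.4 FPKM in whole brain. Pdf, the peptide gene of the ventral lateral clock neurons, had 8.78 and 10.8 FPKM in the OK107 libraries, against 53.2 FPKM in whole brain. Genes induced by neuronal activity were higher in 7 and lower in 2 of 18 cases, against 31.5% and 22.0% of all genes. With only OK107 a or only OK107 b 5 were higher and 0 lower. Gadd45, a stress-response gene of that list, had 47.3 and 43.7 FPKM in the OK107 libraries, against 3.82 FPKM in whole brain, while Hr38, a nuclear receptor gene used as an activity reporter, did not pass, with 46.1 and 48.1 FPKM in the OK107 libraries, against 44.2 FPKM in whole brain.

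**Figure D4:**
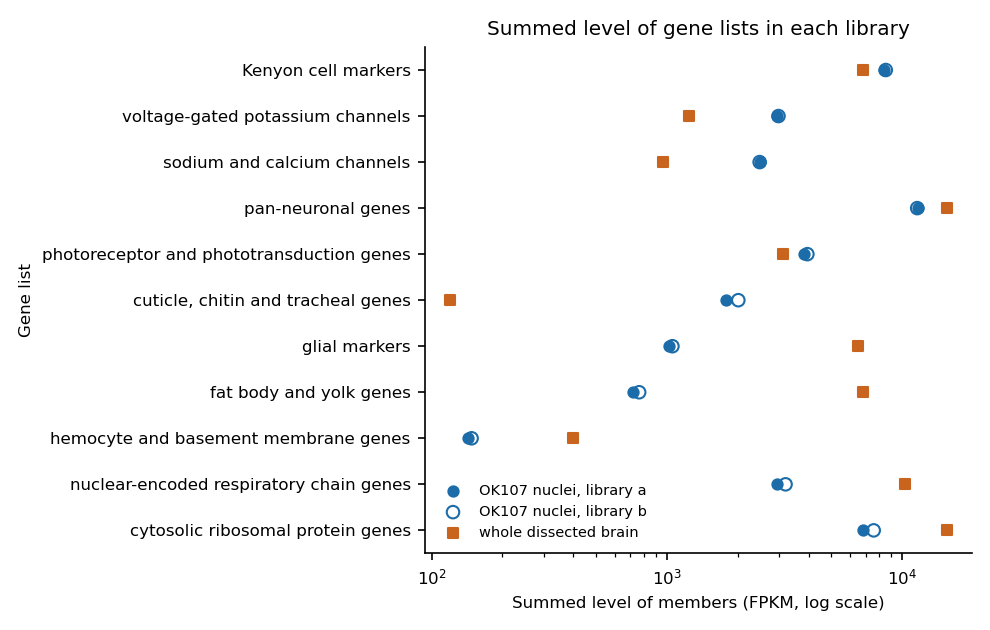
Summed FPKM, on a log scale, of the members of 11 gene lists that have a value in all 3 libraries, for OK107 library a (filled circle), OK107 library b (open circle) and whole brain (square). OK107 lies right of whole brain for Kenyon cell markers, channels, photoreceptor and cuticle genes and left of it for the other lists.

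Further genes with the largest differences each way fall partly outside these lists. CG6912, of no named function, had 71.8 and 75.4 FPKM in the OK107 libraries, against 0.588 FPKM in whole brain. CG7203, a member of the cuticle list, had 466 and 559 FPKM in the OK107 libraries, against 10.1 FPKM in whole brain. Nplp3, a neuropeptide-like precursor gene, had 2251 and 2868 FPKM in the OK107 libraries, against 83.8 FPKM in whole brain. The Tdc2 libraries, which enter the estimate of the spread, had 266 and 848 FPKM, and the SE was 0.66. Cyp313a1, a cytochrome P450 gene, had 114 and 114.7 FPKM in the OK107 libraries, against 3.20 FPKM in whole brain. These genes were chosen for the size of their differences. GV1 had 163 and 168 FPKM in the OK107 libraries, against 4.28 FPKM in whole brain. CG1561 (pkm) had 53.9 and 55.9 FPKM in the OK107 libraries, against 1.29 FPKM in whole brain. Acp1 and Cpr97Eb, both in the cuticle list, were higher by 4.88 and 4.68. CG7203, Nplp3, Acp1 and Cpr97Eb each lost their call in 2 of 15 alternatives. On the lower side, CG9377 had 0.12 and 0.173 FPKM in the OK107 libraries, against 115.3 FPKM in whole brain. Lsp2, a larval serum storage protein gene, had 0.0546 and 0.111 FPKM in the OK107 libraries, against 40.8 FPKM in whole brain. fit, a female fat body gene that responds to feeding, had 0.0724 and 0.252 FPKM in the OK107 libraries, against 25.1 FPKM in whole brain. These 3 were close to 0 in OK107, so no fold is given. The glial transporter genes CG9657 (rumpel) and CG6723 (bumpel) had differences of -4.69 and -4.54. Rh50, an ammonium transporter family gene, Ugt35b, a glucuronosyltransferase gene, and Tsp5D, a tetraspanin gene, were lower, with differences of -4.21, -4.16 and -4.14.

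Some genes that differ can also mark the fly stocks or the sex of the flies, which the labels do not give. w, the eye pigment transporter gene that is also the usual marker of fly transgenes, had 139.9 and 151 FPKM in the OK107 libraries, against 0.43 FPKM in whole brain. Its difference was the largest of all tested genes in the main fit, 6.68 (SE 0.20, adjusted p = 0.000282). Over the alternatives w ranged from 4.79 to 8.10 and CG9377 from -8.88 to -4.55, so this rank depends on the setting. w was at 26.3 FPKM in R57C10 nuclei and at 29.1 and 39.1 FPKM in Tdc2 a and b. y, the yellow gene, another transgene marker, had 5.50 and 6.004 FPKM in the OK107 libraries, against 0.546 FPKM in whole brain. Of the 15 tested eye pigment and marker genes 8 were higher and 3 lower, or 0 lower with only OK107 a or only OK107 b. Hsp70Bb, one of several near-identical heat shock gene copies between which reads are hard to divide, had 211 and 213 FPKM in the OK107 libraries, against 5.86 FPKM in whole brain and 325 FPKM in R57C10 nuclei. Parts of Hsp70 genes are common in fly transgenes. roX1, a noncoding RNA of the male dosage compensation complex, had 6.53 and 7.15 FPKM in the OK107 libraries, against 0.0122 FPKM in whole brain. Yolk protein genes, which females express, went the other way, as given above. Of 23 heat shock genes 9 (39.1%) were higher and 9 (39.1%) lower, against 31.5% and 22.0% of all genes. The sign of their median changes after median centring and after quantile normalization. Hsp22, a small mitochondrial chaperone gene, had 74.4 and 84.7 FPKM in the OK107 libraries, against 3.37 FPKM in whole brain. The part of stock, sex or transgene in these values was not tested.

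Differences also varied with gene structure, a property the test did not use. Structures came from a current annotation for 97.7% of the tested genes. Among genes averaging at least 10 FPKM over the 2 groups, those with 1 or 2 introns had a median difference of -0.43, and 17.2% were higher and 42.8% lower (n = 1235). Those with 9 to 16 introns had a median of 0.41, with 49.0% higher and 13.2% lower (n = 676). Genes with at least 17 introns had a median of 0.95, with 75.4% higher and 9.0% lower (n = 122). In these classes, genes with many introns were more often above whole brain than genes with few. Over all tested genes the medians were 0.36 for genes without introns, -0.12 for genes with 2 introns and 0.86 for genes with at least 17. The genes without introns were lowly expressed, with a median of 2.49 FPKM in whole brain. Those of them averaging at least 10 FPKM had a median difference of -0.47, with 25.2% higher and 44.7% lower (n = 226). Transcripts of over 8000 bases had a median of 0.65, with 62.5% higher and 6.4% lower (n = 299), and transcripts of 1000 to 2000 bases had a median of -0.04 (n = 3064). In R57C10 nuclei, against the same whole brain library and so not a separate support, genes with at least 17 introns had a median of 0.92 over all tested genes and transcripts of over 8000 bases one of 0.67. Across genes the rank correlation of the difference with the number of introns was 0.04 (n = 9388), given as a description, since genes share their libraries.

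**Figure D5:**
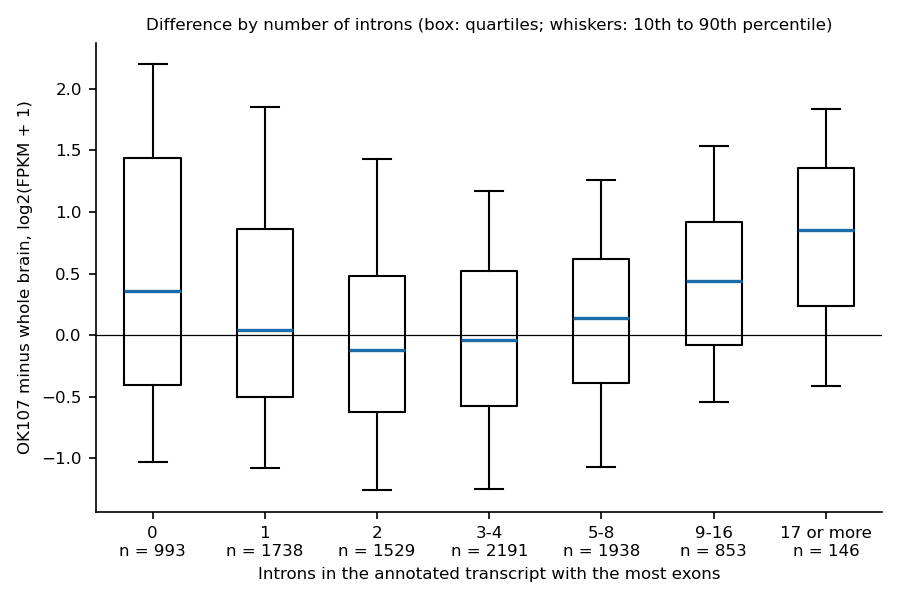
Difference between OK107 and whole brain on log2(FPKM + 1) for tested genes grouped by their number of introns. Boxes give quartiles, blue lines medians and whiskers the 10th to 90th percentiles. The median is lowest for 2 introns, at -0.12, and highest for 17 or more, at 0.86.

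Some genes could not be tested. A value was missing in at least 1 library for 683 genes, of which 85 had at least 10 FPKM in whole brain, and 5263 further genes were under the filter on low values. Among those with a missing value were CaMKII and dlg1 of the learning list, and brp and Syt1 of the presynaptic lists. Of the genes under the filter 3 had at least 10 FPKM in whole brain. These were Akh, the adipokinetic hormone gene of the corpora cardiaca, with 0.65 and 0.91 FPKM in the OK107 libraries, against 26.1 FPKM in whole brain, and CG10062 and CG14329. Of 15 mitochondrially encoded genes matched, 12 are listed at 0 in all 3 libraries, so nothing is said of their levels. The noncoding gene noe, named after its values were seen, had 1395 and 2007 FPKM in the OK107 libraries, against 14595 FPKM in whole brain.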

How the data were processed

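Nuclear RNA was converted to cDNA with a NuGEN Ovation kit and read to 50 bases on an Illumina instrument, per the labels. The submitters' processing notes name CASAVA 1.8, TopHat 1.4.0, Cuffdiff 1.3.0, bedtools 2.15 and genome build dm3. FPKM values per gene were made with Cuffdiff by the authors, per the file headers. Read counts were not analysed here, and whether reads were counted by strand is not given in the sources used here, so overlapping genes and near-identical copies are uncertain. The table has 10 FPKM columns, of which 4 name a library that another column already gives and were not used. OK107 a and b are not tied by name to the labels' replicate numbers, and nothing says that they came from separate flies, so the spread between them may be technical.

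Differences of log2(FPKM + 1), OK107 minus whole brain, were fitted in limma (version 3.58.1, under R 4.3.3), using eBayes with a trend and the robust option, over 6 libraries with 2 residual degrees of freedom. Genes with a value in all 6 libraries and at least 1 FPKM in 2 were kept, two-sided p-values were Benjamini-Hochberg adjusted over all 9605 genes, and the threshold was 0.05. In 5 simulated runs over 9605 genes, 100 genes were changed 2-fold and another 100 were changed 4-fold. Between 4 and 22 of the former and between 79 and 91 of the latter were recovered, with 1 to 8 false calls. Far more genes passed in the data, 5141, which makes the adjustment less strict, so these shares do not describe this comparison. Fold ratios are of mean FPKM. Gene structures came from the Ensembl annotation of a later build, matched by gene name, so no coordinates are given. Each gene took its longest transcript and its highest intron number. Current symbols came from RefSeq for 14782 genes.

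The members, the 57 gene lists and the naming rule were chosen with earlier results of these data known. Genes named are those passing with the largest differences each way, both OK107 libraries on the same side and a mean of at least 10 FPKM in the higher group, up to 15 each way (CG numbers only among the 3 largest). Named too are up to 6 members of each list, taken by smallest p, every tested member where a list has at most 8, other members beside their list's count, label checks, and up to 5 genes under the filter. Alternatives were other scalings, pseudocounts, filters, libraries and model terms.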

Additional observations from a re-analysis of the deposited data

How the results depend on the processing

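The main test called 5141 genes, 3028 higher and 2113 lower in OK107. Counts were lower by over 1.5 times when an OK107 library was left out, between 2932 and 3027 genes in all, between 1793 and 1839 higher and between 1093 and 1234 lower. Asking also for a 2-fold difference gave 2909 genes, 1819 higher and 1090 lower, and asking only that both OK107 libraries differ 2-fold from whole brain, with no test, gave 2695 genes, 1717 higher and 978 lower. Leaving out a Tdc2 library gave between 6915 and 6926 genes, between 3898 and 3900 higher and between 3017 and 3026 lower. In smaller lists, without Tdc2 a or without Tdc2 b muscle genes had 12 higher and 8 lower, factors of other neuron types 16 higher, neuropeptide receptors 7 lower, splicing genes 8 lower, cuticle genes 4 lower and glial genes 3 higher. The other alternatives stayed within 1.5 times of the main counts. Median centring gave 2732 higher and 2530 lower genes, quantile normalization 2387 and 2297, and the fit on only the 3 libraries compared 3895 and 3032. The median difference of all genes was 0.10 in the main fit, -0.01 after median centring and -0.06 after quantile normalization. n-syb, which did not pass, was at 0.46 after quantile normalization, and Tdc2 was at -0.055 after median centring, -0.32 after quantile normalization and -0.22 when the date tag was added to the model. The cause was not tested. Of the 30 genes named for the largest differences, 23 kept their call in all 15 alternatives that gave them a value, and 17 values of the others lost it without a change of sign. No paired analysis was possible because whole brain is 1 library with no replicate number and the columns of the OK107 libraries carry none. FPKM keeps no counts, so counting intervals were not computed, and genes under about 1 FPKM in whole brain have folds with little precision.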
